A study of Mus musculus with 8 samples.

Results

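The IL-1 system was examined here through 10 genes in bone marrow-derived macrophages (BMDMs) with and without MKL1, a transcriptional coactivator of serum response factor. The set comprised the cytokines Il1a, Il1b and Il18, the receptor antagonist Il1rn, the receptor genes Il1r2 and Il1rap, and the inflammasome components Nlrp3, Pycard, Casp1 and Casp4. The genes were chosen by name, with earlier results of these data known. All 10 were found among the 53735 genes listed in the deposited count tables. There were 8 bulk RNA-seq libraries, 4 from Mkl1+/+, Apoe-/- (WT) and 4 from Mkl1-/-, Apoe-/- (KO) mice. The libraries came from 2 separate experiments, with WT1, WT2, KO5 and KO6 in experiment 1 and WT3, WT4, KO7 and KO8 in experiment 2. Every donor mouse was male, 6 months old, of C57BL/6J background and lacked apolipoprotein E, so that WT refers only to Mkl1. All mice, WT and KO, had received angiotensin II (Ang II) from subcutaneous minipumps for 7 days at 1.44 mg/kg per day before their marrow was taken, and the cells were then differentiated for 7 days in culture. No library from saline-infused mice was analysed here, so the values contrast genotypes under Ang II and not the response to Ang II. The Mkl1 deletion was global, carried by all cells of the donor and not by macrophages alone.

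Interleukin-1 alpha and beta both signal through the IL-1 receptor, which needs the accessory chain encoded by Il1rap, whereas the receptor antagonist occupies the receptor without signalling and IL1R2 is a decoy. Macrophages make pro-IL-1 beta after an inflammatory stimulus has switched its gene on, and a second step is needed to cut and release it. In that step the sensor NLRP3 assembles with the adaptor ASC, encoded by Pycard, into an inflammasome that activates caspase-1, the protease that cuts pro-IL-1 beta and pro-IL-18. Caspase-4, also called caspase-11 in the mouse, responds to lipopolysaccharide inside the cell. RNA levels bear on the supply of these proteins and not on cutting or release, which were not measured.

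Each library held between 33977799 and 41584540 counts, and counts were expressed as CPM, a level relative to the library total, with TMM scaling. Mkl1 itself was listed at 25.6 to 29.6 CPM in the 4 WT libraries and at 10.4 to 20.9 CPM in the 4 KO libraries. Its log2 fold change was -0.39 (SE 0.08, adjusted p = 0.00381, edgeR) in experiment 1 and -1.17 (SE 0.19, adjusted p = 0.0218, edgeR) in experiment 2. Mkl1 RNA was therefore counted in every KO library, and the labels do not say which part of the gene the allele lacks. The labelled cell type was checked against marker genes. The 10 macrophage markers summed to 16020 to 36540 CPM, but in experiment 1 4 of them were lower and 5 higher in KO, beside 28.1% and 27.0% of all genes. Adgre1 was among the lower ones (log2 fold change -2.11), and Marco had 1982 to 2463 counts in WT1 and WT2 and 0 and 1 counts in KO5 and KO6. In experiment 2, 2 of the markers were higher, Adgre1 (0.91) and Itgam (1.34), and 2 lower, Csf1r (-1.28) and Cd14 (-1.48), beside 7.52% and 8.29% of all genes. The 12 neutrophil markers summed to 12.0 to 140 CPM. Lcn2 had 1081 to 2033 counts in WT1 and WT2, 1 and 3 in KO5 and KO6, 198 to 469 in WT3 and WT4, and 1287 and 5744 in KO7 and KO8. Mmp8 had 67 to 496 counts and S100a8 4 to 54, the latter lower in KO in experiment 1, and the other 9 had at most 8 counts, with Ly6g at most 1. The part of these markers in the values below was not tested. Of the 6 lymphocyte markers, Klrb1c had 1 to 22 counts and the others at most 2, and of the 8 dendritic cell markers Zbtb46 had 12 to 25 counts, Xcr1 4 to 18 and the others at most 7. Fibroblast markers summed to 163 to 217 CPM in KO5 and KO6 and to 1.68 to 11.2 CPM in the other 6 libraries, and all 6 that were tested were higher in KO in experiment 1. The basophil gene Mcpt8 had 43 and 51 counts in KO5 and KO6 and 0 counts in the other 6 libraries, while the other 5 mast cell and basophil markers had at most 3 counts in any library. The labels do not say whether each library came from a separate mouse, and the p-values measure only the spread between these libraries.

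The upstream sequences of the 5 genes with the most negative fold changes in experiment 2 are printed because the results below turn on their RNA levels. They were taken from RefSeq (mouse build GRCm38.p6) as the 250 bases before a transcript start, and are written 5′ to 3′ on the strand of the gene. All 10 genes had an entry, with 14 such windows between them. Capitals mark matches, on either strand, to 5 motifs: the CArG box of serum response factor, the kappa B site, the AP-1 site TGANTCA, the interferon regulatory factor site GAAANNGAA and the PU.1 site GAGGAA. The CArG box and the kappa B site are given by name because they hold ambiguous letters other than N.
Il1b, chr2:129371140-129371389, minus strand: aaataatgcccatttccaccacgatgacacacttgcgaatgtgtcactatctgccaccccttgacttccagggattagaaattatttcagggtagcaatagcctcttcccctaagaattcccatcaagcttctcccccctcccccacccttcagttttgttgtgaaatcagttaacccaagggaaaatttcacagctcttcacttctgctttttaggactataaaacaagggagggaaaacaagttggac
Il1a, chr2:129309973-129310222, minus strand: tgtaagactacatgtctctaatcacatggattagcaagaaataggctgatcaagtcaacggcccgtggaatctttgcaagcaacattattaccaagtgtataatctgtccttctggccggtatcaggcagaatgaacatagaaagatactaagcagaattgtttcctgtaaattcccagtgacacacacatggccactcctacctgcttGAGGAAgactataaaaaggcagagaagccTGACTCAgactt
Nlrp3, chr11:59541319-59541568, plus strand: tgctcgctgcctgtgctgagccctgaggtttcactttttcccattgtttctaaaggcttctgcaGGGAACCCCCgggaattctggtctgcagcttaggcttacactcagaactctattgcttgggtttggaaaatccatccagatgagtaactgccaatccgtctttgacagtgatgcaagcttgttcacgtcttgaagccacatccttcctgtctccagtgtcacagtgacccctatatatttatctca
Il18, chr9:50554450-50554699, plus strand: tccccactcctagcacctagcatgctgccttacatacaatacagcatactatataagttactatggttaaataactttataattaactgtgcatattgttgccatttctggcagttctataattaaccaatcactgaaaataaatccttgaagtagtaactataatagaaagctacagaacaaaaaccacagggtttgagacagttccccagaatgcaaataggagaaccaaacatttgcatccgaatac
Casp4, chr9:5308599-5308848, plus strand: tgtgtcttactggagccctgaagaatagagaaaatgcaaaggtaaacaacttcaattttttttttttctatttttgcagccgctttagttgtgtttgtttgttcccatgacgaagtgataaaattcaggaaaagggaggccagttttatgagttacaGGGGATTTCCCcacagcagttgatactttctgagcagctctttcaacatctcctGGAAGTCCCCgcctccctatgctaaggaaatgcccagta
The Il1a window held an AP-1 match 12 to 6 bases before the start and a PU.1 match 41 to 36 bases before it. A kappa B match lay 186 to 177 bases before the Nlrp3 start. In the Casp4 window a pair of kappa B matches overlapped at 93 to 83 bases before the start, and another lay at 39 to 30 bases. The Il1b and Il18 windows held none of the 5 motifs, which says only that these letters were not found in these 250 bases.

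A CArG box was found in 0 of the 14 windows, against 1.47% of all 32851 windows of this length in the RefSeq table. Kappa B matches occurred in 3 of the 14 windows, belonging to Casp4 and Nlrp3, against 7.25% of all windows. The Casp4 windows overlap almost fully and hold the same matches. AP-1 matches occurred in the windows of Il1a and Il1rn, against 6.75% of all windows. PU.1 matches occurred in 4 windows, those of Il1a, Pycard, Casp1 and a further Nlrp3 start, against 23.3% of all windows. The interferon regulatory factor site was found in 0 windows, against 7.13% of all. A match is a description of the letters, and binding was not measured.

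Several of these genes are neighbours in the genome (build GRCm38, GENCODE coordinates). Il1a (ENSMUSG00000027399, chr2:129299610-129309972) and Il1b (ENSMUSG00000027398, chr2:129364570-129371139) lay on the minus strand of chromosome 2, 54.6 kb apart. Il1rn (ENSMUSG00000026981, chr2:24336853-24351494, plus strand) was far from both on the same chromosome. Casp1 (ENSMUSG00000025888, chr9:5298517-5307265) and Casp4 (ENSMUSG00000033538, chr9:5308828-5336783) were adjacent on the plus strand of chromosome 9 with 1.56 kb between them, and Il18 (ENSMUSG00000039217, chr9:50554827-50581840, plus strand) lay elsewhere on that chromosome. Nlrp3 (ENSMUSG00000032691) occupied chr11:59541568-59566956 on the plus strand, and Pycard (ENSMUSG00000030793) chr7:127989708-127993867 on the minus strand. Il1rap (ENSMUSG00000022514) occupied chr16:26581704-26730117 and Il1r2 (ENSMUSG00000026073) chr1:40074079-40125231, both on the plus strand. All are protein-coding genes, and the counts cover whole genes, so that transcript forms were not separated.

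RNA for Il1b and the caspases was lower in KO BMDMs, whereas Il18, Nlrp3 and Pycard behaved differently in the 2 experiments. Of the 10 genes, 9 passed the filter on low counts, and Il1r2 did not. Il1a passed through its WT libraries only, with 0 KO libraries above the filter level of 0.259 CPM, and is left out of the counts that follow, since such a gene had to differ. In experiment 1, 5 of the other 8 were lower and 1 was higher in KO, where 28.1% of all 14418 genes tested were lower and 27.0% were higher. In experiment 2, 5 of the 8 were lower and 1 was higher, where 8.29% of all genes were lower and 7.52% were higher. Over the 8 genes the median change on the log2 scale was -0.43 in experiment 1 and -1.30 in experiment 2, and that of all genes tested was 0.01 in each. Il1b, Casp1 and Casp4 were lower in KO in each experiment. Over all genes tested, 632 changed in the same direction in each experiment and 914 in opposite directions. Il18 and Pycard changed in opposite directions, Nlrp3 changed in experiment 2 only by this threshold, Il1rn in experiment 1 only, and Il1rap in neither.

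The experiment 2 counts rest on few libraries. With KO7 or KO8 left out, 2 of the 8 genes passed the threshold as lower, Nlrp3 and Casp4 in each case, and without WT3 3 did. The loss was general, since the calls over all genes fell from 2279 to 842 without KO7, 232 without KO8 and 803 without WT3.

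**Figure D1:**
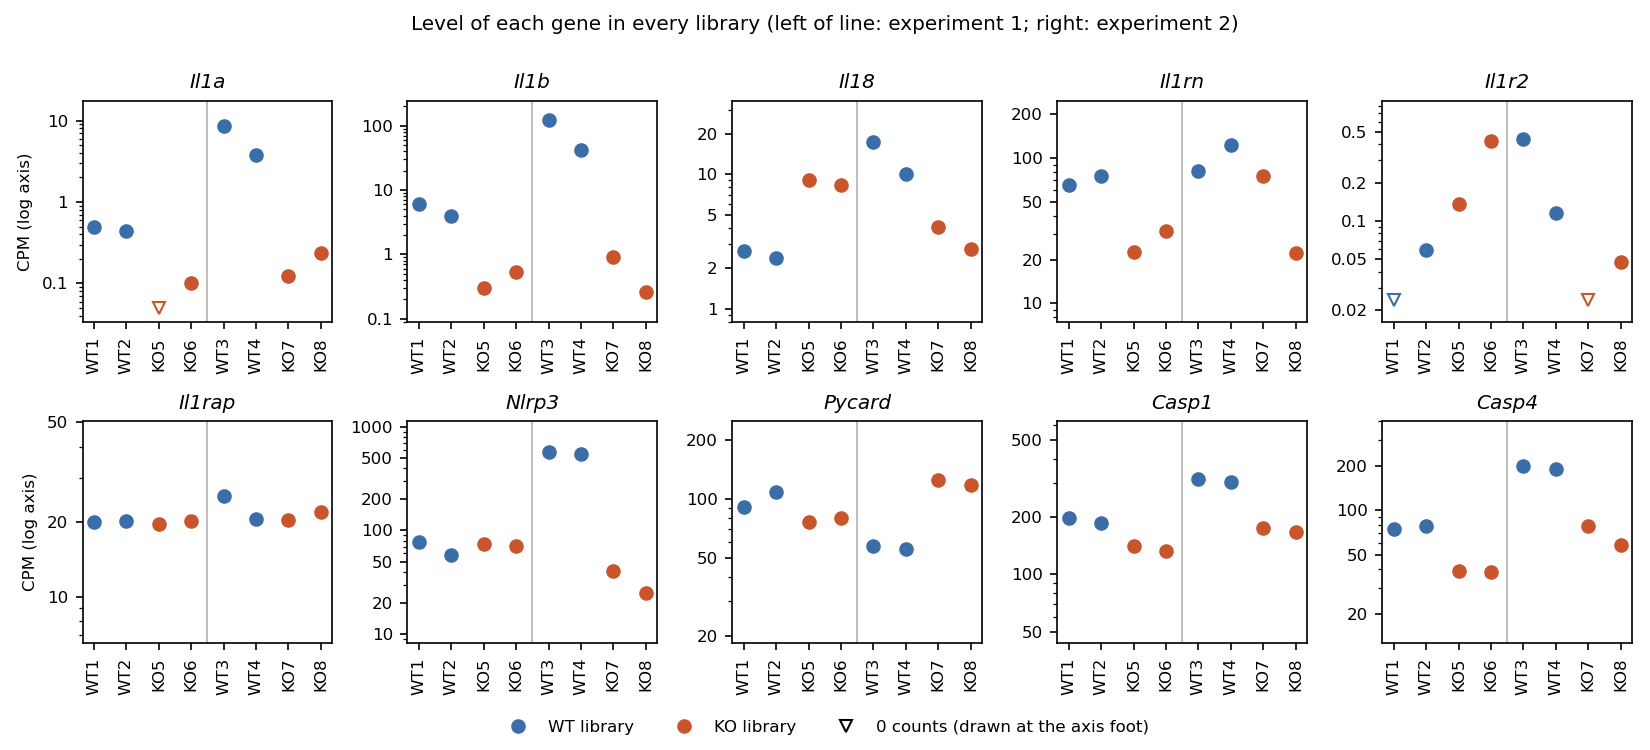
CPM (log axis, a separate scale for each gene) of the 10 genes in the 8 libraries, with WT in blue, KO in orange and a line between experiment 1 (left) and experiment 2 (right). Open triangles at the foot of a panel mark libraries with 0 counts. All KO points lie below all WT points for Il1a, Il1b and Casp1, and Nlrp3 stands at 551 and 566 CPM in WT4 and WT3 against 24.9 to 78.0 CPM in the other 6 libraries.

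Il1b is the gene of the main secreted IL-1 of macrophages. With Il1a set aside, it had the largest fitted fold change of the tested genes of the set in each experiment. Its level was 6.20 and 4.02 CPM in WT1 and WT2 and 0.298 and 0.525 CPM in KO5 and KO6. In experiment 2 it stood at 122 and 41.7 CPM in WT3 and WT4 and at 0.903 and 0.264 CPM in KO7 and KO8. All 4 KO values were under the lowest WT value, and they rest on 11 to 37 counts each. The log2 fold change was -3.63 (SE 0.34, adjusted p = 9.94e-05) in experiment 1, a 12.4-fold lower level. The experiment 2 log2 fold change was -7.13 (SE 0.83, adjusted p = 0.0145), a 140-fold lower level. It was -6.16 without WT3 and -8.25 without KO7, so the size of the fold depends on single libraries. The experiment 2 call was lost without KO7 (adjusted p = 0.0505), without KO8 (adjusted p = 0.0811) and with no filter on low counts (adjusted p = 0.129).

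The difference between the Il1b changes of the 2 experiments was itself tested as an interaction, and was -3.51 (SE 1.18, adjusted p = 0.0472, edgeR) on the log2 scale. That call was lost under limma-voom (adjusted p = 0.217) and without any of KO5, KO6, KO8, WT1, WT2 or WT3, at adjusted p of 0.0592 to 0.267, and the value ranged from -4.60 without KO7 to -2.51 without WT3. The KO levels of the 2 experiments were within 1.42 times of each other by their means, whereas the WT mean was 16.0 times higher in experiment 2 than in experiment 1. An antisense gene, Il1bos, shares 25 exon bases with Il1b and had at most 1 count in any library.

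Il1a, whose product is active without cutting and can act at the cell surface, followed the same order at a lower level. Counts were 20 and 15 in WT1 and WT2, and 0 and 4 in KO5 and KO6. In experiment 2 they were 317 and 132 in WT3 and WT4, and 5 and 10 in KO7 and KO8. No KO library reached the level of a WT library, but the experiment 1 comparison rests on 4 KO counts in all. Il1a passed the low-count filter only through the WT libraries, the group where it was high, so its fold changes are a description and no test is read from them. The log2 fold change was -3.11 (SE 0.75) in experiment 1 and -5.08 (SE 0.61) in experiment 2. The experiment 1 value was -2.20 without KO5, and without KO6 the remaining KO library is at 0 counts. The experiment 2 value was -4.37 without WT3.

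Il18 encodes a cytokine that is cut by caspase-1 like IL-1 beta but, unlike it, is made by many resting cells. Its level was 2.71 and 2.38 CPM in WT1 and WT2 and 9.12 and 8.30 CPM in KO5 and KO6, so the KO libraries were the higher ones. In experiment 2 the order was the reverse, with 17.5 and 9.95 CPM in WT3 and WT4 and 4.03 and 2.76 CPM in KO7 and KO8. Genotypes did not overlap within either experiment and overlapped across them. Il18 was 3.39-fold higher in KO in experiment 1 (log2 fold change 1.76, SE 0.15, adjusted p = 4.37e-05) and 4.04-fold lower in experiment 2 (log2 fold change -2.01, SE 0.35, adjusted p = 0.0256). The interaction was -3.79 (SE 0.42, adjusted p = 0.000763, edgeR). The experiment 2 call was lost without KO7, KO8 or WT3, at adjusted p of 0.0731, 0.126 and 0.0527.

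A list of 20 interferon stimulated genes, drawn up with earlier results of these data known, moved between experiments in the same manner. In experiment 1, 18 of them were higher in KO and 0 lower (0 also at unadjusted p under 0.05, edgeR), beside 27.0% higher over all genes, and the median of their log2 fold changes was 1.43. In experiment 2, 16 were lower and 0 higher (again 0 unadjusted), beside 8.29% lower over all genes, with a median of -2.49. The interaction passed the threshold for all 20, beside 41.6% of all genes. Fibroblast markers, as given above, were also high in KO5 and KO6, and the part of either in the Il18 values was not tested. Il18 overlaps Bco2 on the opposite strand, with no shared exon bases. Bco2 had 20 and 12 counts in WT1 and WT2, 97 and 129 in KO5 and KO6, 134 and 56 in WT3 and WT4, and 31 and 22 in KO7 and KO8. As for Il18, the KO libraries were the higher ones in experiment 1 and the lower ones in experiment 2. The strand setting of the counting is not given in the sources used here.

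**Figure D2:**
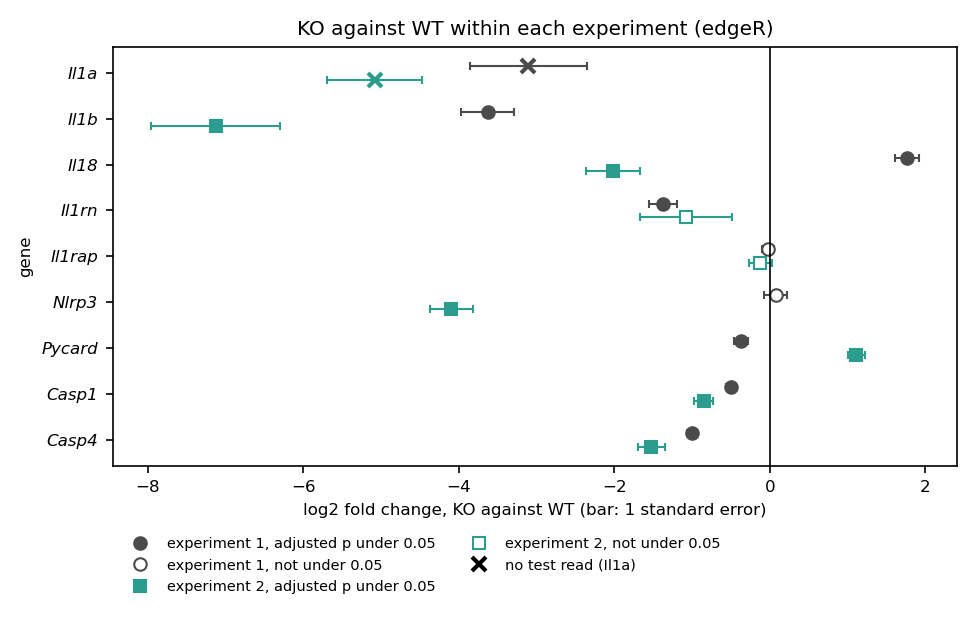
Log2 fold change of KO against WT in experiment 1 (grey circles) and experiment 2 (green squares) for the 9 genes tested, with bars of 1 standard error and filled symbols where the adjusted p of edgeR was under 0.05. Il1a, from which no test is read, is drawn with crosses. Il1b, Casp1 and Casp4 lie left of 0 with filled symbols in each experiment, and Il18 and Pycard have filled symbols on opposite sides of 0.

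Il1rn encodes the IL-1 receptor antagonist, the natural inhibitor of IL-1 alpha and beta. Its level was 65.0 and 75.1 CPM in WT1 and WT2 and 22.6 and 31.6 CPM in KO5 and KO6, a 2.6-fold lower level in KO (log2 fold change -1.38, SE 0.18, adjusted p = 0.00332), although a fit of all 4 groups together gave an adjusted p of 0.0619. In experiment 2 the WT libraries stood at 81.7 and 123 CPM and the KO libraries at 75.2 and 22.2 CPM. KO7 lay near WT3 while KO8 lay at the level of KO5, and the log2 fold change of -1.07 (SE 0.59, adjusted p = 0.272) did not pass the threshold. It was -2.21 without KO7 and -0.45 without KO8. The interaction was 0.29 (SE 0.69, adjusted p = 0.760). Il1rn is thus called in 1 experiment, and the data do not show that its change differed between them.

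Because the antagonist competes with the agonists, the ratio of Il1rn to Il1b counts was computed in each library, with 0.5 added to each count. It was 10.5 and 18.6 in WT1 and WT2, and 72.8 and 58.9 in KO5 and KO6. In experiment 2 it was 0.672 and 2.96 in WT3 and WT4, and 82.2 and 80.5 in KO7 and KO8. All 4 KO libraries lay between 58.9 and 82.2, above every WT library, and WT3 was the library in which Il1b counts exceeded those of Il1rn. This is a ratio of read counts of genes of unequal length and not of protein. The ratio to Il1a gave 129 and 165 in WT1 and WT2, 9.39 and 32.4 in WT3 and WT4, 281 in KO6, and 561 and 88.1 in KO7 and KO8, with none given for KO5, where Il1a had 0 counts. Here KO8 lay below WT1 and WT2, and the genotypes overlapped.

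Il1rap, the signalling chain shared by the receptors of IL-1, IL-33 and IL-36, varied least. It ranged from 19.8 to 25.3 CPM in the WT libraries and from 19.6 to 21.8 CPM in the KO libraries. The log2 fold change was -0.02 (SE 0.08, adjusted p = 0.839) in experiment 1 and -0.12 (SE 0.15, adjusted p = 0.603) in experiment 2. The highest library was WT3 at 25.3 CPM, and the other 7 lay within 19.6 to 21.8 CPM.

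Il1r2, the decoy receptor, was close to absent. It had 0 and 2 counts in WT1 and WT2, 5 and 17 in KO5 and KO6, 16 and 4 in WT3 and WT4, and 0 and 2 in KO7 and KO8. No library exceeded 0.439 CPM, and the gene did not pass the filter. With no filter on low counts edgeR gave a log2 fold change of 3.20 (SE 0.94, adjusted p = 0.00245) in experiment 1, which rests on 2 WT counts. The same fit gave -3.36 (SE 1.08, adjusted p = 0.0576) in experiment 2, which rests on 2 KO counts. Its interaction was -6.58 (adjusted p = 2.11e-05). Adjusted p-values of the unfiltered fit are not on the scale of the main fit. For Il1b in experiment 1 edgeR gave 4.1e-41 without the filter and 9.94e-05 with it.

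Nlrp3, the inflammasome sensor whose gene is induced by inflammatory stimuli, separated the experiments. In experiment 1 it stood at 78.0 and 57.6 CPM in WT1 and WT2 and at 73.8 and 70.5 CPM in KO5 and KO6. The level in experiment 2 was 566 and 551 CPM in WT3 and WT4 and 40.4 and 24.9 CPM in KO7 and KO8. The genotypes overlapped in experiment 1 and were 17.1-fold apart in experiment 2. The log2 fold change was 0.08 (SE 0.15, adjusted p = 0.701) in experiment 1 and -4.10 (SE 0.28, adjusted p = 0.00468) in experiment 2, with an interaction of -4.19 (SE 0.33, adjusted p = 0.000272, edgeR). Without WT1 the experiment 1 value became 0.32 (adjusted p = 0.0172), with KO the higher. By group means, the WT level of Nlrp3 was 8.23 times as high in experiment 2 as in experiment 1, and the KO level 0.452 times. In bulk RNA, fewer cells that express a gene and less RNA in each cell cannot be told apart.

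Pycard, the gene of the adaptor ASC, ran against Nlrp3 in experiment 2. Its level was 91.1 and 109 CPM in WT1 and WT2 and 76.6 and 79.7 CPM in KO5 and KO6, which was 1.29-fold lower in KO (log2 fold change -0.37, SE 0.09, adjusted p = 0.0107). In experiment 2 it was 57.2 and 55.3 CPM in WT3 and WT4 and 125 and 118 CPM in KO7 and KO8, which was 2.16-fold higher in KO (log2 fold change 1.11, SE 0.10, adjusted p = 0.00756). WT3 and WT4 were the lowest of the 8 libraries for Pycard and the highest for Nlrp3. The interaction was 1.47 (SE 0.14, adjusted p = 0.000441, edgeR). The experiment 1 call was lost without KO5 (adjusted p = 0.0634).

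The ratio of Nlrp3 to Pycard counts followed from these levels. It was 0.857 and 0.529 in WT1 and WT2, 0.964 and 0.885 in KO5 and KO6, 9.88 and 9.96 in WT3 and WT4, and 0.323 and 0.210 in KO7 and KO8. In WT3 and WT4 the sensor outnumbered the adaptor in counts, and in the other 6 libraries it did not.

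Casp1, the protease of the canonical inflammasome, was moderately lower in KO in each experiment. It stood at 196 and 186 CPM in WT1 and WT2 and at 141 and 132 CPM in KO5 and KO6. The level in experiment 2 was 315 and 303 CPM in WT3 and WT4 and 175 and 167 CPM in KO7 and KO8. All 4 KO values were under the lowest WT value. The log2 fold change was -0.50 (SE 0.06, adjusted p = 0.000275) in experiment 1 and -0.85 (SE 0.12, adjusted p = 0.0158) in experiment 2, and the interaction was -0.37 (SE 0.11, adjusted p = 0.0350, edgeR). The experiment 2 call was lost without KO7, KO8 or WT3, at adjusted p of 0.0528, 0.0816 and 0.0519. The interaction was lost with no filter (adjusted p = 0.140) and without any of KO5, KO6, KO8, WT1, WT2 or WT3, at adjusted p of 0.0637 to 0.171.

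Casp4, which detects intracellular lipopolysaccharide, was also lower in KO in each experiment. Its level was 75.0 and 78.3 CPM in WT1 and WT2 and 39.1 and 38.2 CPM in KO5 and KO6. In experiment 2 it was 201 and 191 CPM in WT3 and WT4 and 78.5 and 58.0 CPM in KO7 and KO8. Within each experiment the genotypes were apart, and across experiments KO7 lay just above WT1 and WT2. The log2 fold change was -0.999 (SE 0.06, adjusted p = 8.56e-06) in experiment 1 and -1.52 (SE 0.17, adjusted p = 0.0111) in experiment 2. The interaction of -0.54 (SE 0.19, adjusted p = 0.0543) did not pass the threshold, although it did under DESeq2 (adjusted p = 0.0439), under upper-quartile scaling (adjusted p = 0.0424), with no filter (adjusted p = 0.0116) and without KO7 (adjusted p = 0.00205) or KO8 (adjusted p = 0.0452). The ratio of Casp1 to Casp4 counts was 2.62 and 2.37 in WT1 and WT2 and 3.59 and 3.46 in KO5 and KO6. It was 1.57 and 1.58 in WT3 and WT4 and 2.23 and 2.87 in KO7 and KO8, so within each experiment the KO libraries had the higher ratio.

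**Figure D3:**
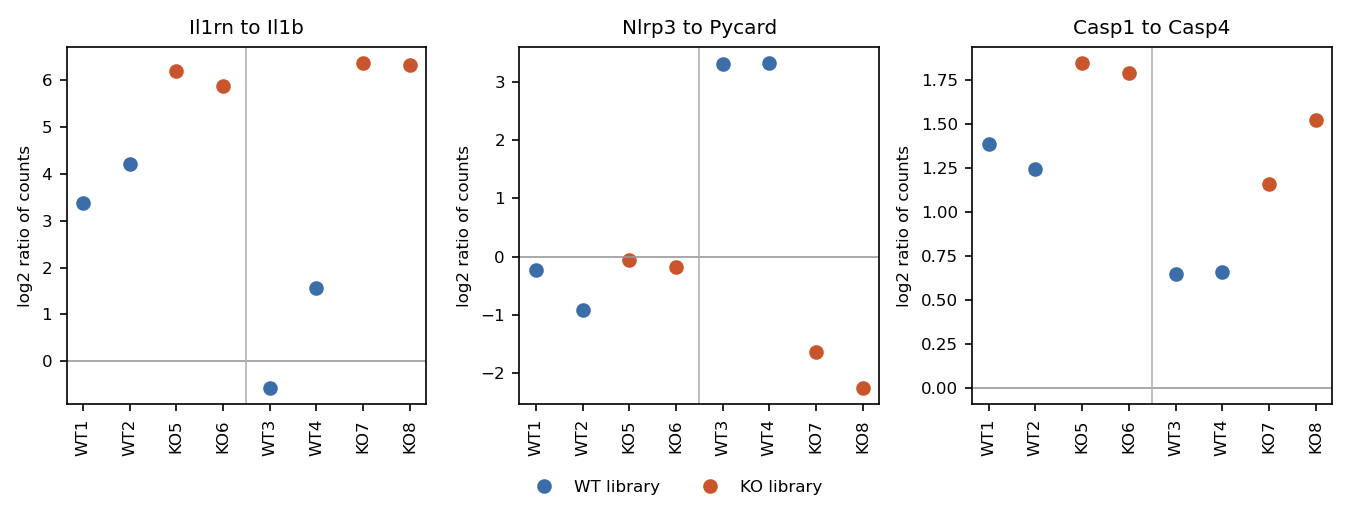
Log2 ratio of counts (0.5 added to each) in every library for Il1rn to Il1b, Nlrp3 to Pycard, and Casp1 to Casp4, with WT in blue, KO in orange and a line between experiment 1 and experiment 2. The ratio of Il1rn to Il1b lies at 5.88 to 6.36 in all 4 KO libraries and below them, at -0.57 to 4.22, in the WT libraries.

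The genotype by experiment interaction passed the threshold for 5 of the 8 genes (Il1b, Il18, Nlrp3, Casp1 and Pycard), where 41.6% of all genes tested passed it. With a background of that size the count says little about these genes as a group. A fit over both experiments with the experiment as a term called 3 of the 8 genes lower in KO, where 3.41% of all genes were lower. These were Il1b (log2 fold change -5.55, SE 0.96, adjusted p = 0.0217), Casp1 (-0.67, SE 0.10, adjusted p = 0.0132) and Casp4 (-1.26, SE 0.15, adjusted p = 0.00666). That fit called 0 of the 8 higher, with 0 at unadjusted p under 0.05 and 0 under DESeq2, where 3.72% of all genes were higher. All 4 KO libraries lay below all 4 WT libraries for 2 of the 8 genes, Il1b and Casp1, and for 6.25% of all genes tested. The joint fit lost Il1b and Casp1 without WT1 (adjusted p of 0.0632 and 0.0511) and without KO7 (0.0904 and 0.0511), and Il1b without KO5 (0.0651) and with no filter (0.0722), whereas Casp4 passed in each case. With no experiment term it called 0 of the 8 (adjusted p 0.143 to 0.162 for the 3 genes), and DESeq2 added Il1rn and Nlrp3.

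Levels of different genes were compared per kilobase of exon. In the WT libraries of experiment 2 the order was Casp1 at 206 CPM per kb, Nlrp3 at 138, Casp4 at 52.9, Il1b at 42.8, Il1rn at 18.5, Pycard at 14.8 and Il18 at 13.3 CPM per kb. Il1a at 3.16, Il1rap at 2.01 and Il1r2 at 0.145 CPM per kb were at the foot of that order. In the KO libraries of experiment 2 Casp1 still led at 114 CPM per kb, followed by Pycard at 32.0, Casp4 at 18.4, Il1rn at 8.80 and Nlrp3 at 8.04 CPM per kb. Il1b, at 0.306 CPM per kb, had moved below Il1rap at 1.85 CPM per kb.

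In experiment 1 Casp1 also led, at 128 CPM per kb in WT and 91.1 CPM per kb in KO. Pycard stood at 26.3 and 20.6 CPM per kb in WT and KO, Casp4 at 20.7 and 10.4, and Nlrp3 at 16.7 and 17.8 CPM per kb. Il1b was at 2.68 CPM per kb in WT and 0.216 CPM per kb in KO. Casp1 thus had the highest level per kilobase in all 4 groups, and Il1b ran from 0.216 to 42.8 CPM per kb over them. The length used was that of all annotated exon bases, 1497 for Casp1 and 3800 for Pycard. The order depends on that length, and transcript forms were not separated.

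For several genes of the set, the genes with the most similar pattern across the 8 libraries were found as those with the smallest root mean square difference in log2 CPM after centring, among all 14418 genes tested. For Il1b these were Cxcl1 (0.692), H2-M2 (0.731) and Cxcl3 (0.926), where Cxcl1 and Cxcl3 encode neutrophil-attracting chemokines. For Il1a they were Cd69 (0.184), Treml4 (0.492) and Mir155hg (0.597). For Nlrp3 they were Nfkbie (0.192), an inhibitor of NF-kB, Traf1 (0.271) and Slamf8 (0.343). Casp4 was closest to St3gal1 (0.0992), Tnfsf9 (0.118) and Cflar (0.125). The nearest patterns to Il18 included Oasl2 (0.191), an interferon stimulated gene. These values describe 8 libraries that share their experiments and carry no test.

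A list of 20 genes known as NF-kB targets was examined beside the set because Il1b and Nlrp3 are switched on by that pathway. Of the 19 tested, 14 were lower and 1 was higher in KO in experiment 1, beside 28.1% and 27.0% of all genes, and their median was -1.91 on the log2 scale. In experiment 2, 17 were lower and 0 higher (0 unadjusted, edgeR), beside 8.29% and 7.52% of all genes, with a median of -3.42. In each experiment 13 were lower, and 632 of all 14418 genes changed in 1 direction in both. The list was drawn up with earlier results of these data known and is not independent support for the values above.

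Other genes of the IL-1 and inflammasome pathway were taken from 5 lists, of which 45 of the 56 genes listed in the tables passed the filter. In experiment 1, 17 were lower and 19 higher in KO, beside 28.1% and 27.0% of all genes, and the median over the 45 was -0.03 on the log2 scale. In experiment 2, 11 were lower and 3 higher, beside 8.29% and 7.52% of all genes, with a median of -0.22. In each experiment these medians were nearer to that of all genes than was the median of the 8. The set and these lists were chosen with earlier results of these data known, so this contrast is a description only. The interaction passed the threshold for 27 of the 45, beside 41.6% of all genes. Of the 45, 5 changed in the same direction in each experiment and 7 in opposite directions, beside 632 and 914 of all 14418 genes.

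Among the other ligands of the family and the IL-18 binding protein, 2 of 7 passed the filter, and Il33 had at most 1 count in any library. Il1f9, which encodes IL-36 gamma, had 45 and 26 counts in WT1 and WT2 and 0 in KO5 and KO6, and was lower in KO in experiment 1 (adjusted p = 0.000281). In experiment 2 it had 23 and 13 counts in WT3 and WT4 and 43 and 38 in KO7 and KO8 (log2 fold change 0.96, SE 0.39, adjusted p = 0.154). Il18bp, which neutralises IL-18, was higher in KO in experiment 1 (log2 fold change 0.74, SE 0.12, adjusted p = 0.00116) and gave -1.003 (SE 0.34, adjusted p = 0.113) in experiment 2.

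Among the other receptors, 5 of 8 passed the filter, with 4 higher and 0 lower in KO in experiment 1 (0 lower unadjusted, edgeR) and 1 higher and 1 lower in experiment 2. Over all genes, 27.0% were higher and 28.1% lower in experiment 1, and 7.52% higher and 8.29% lower in experiment 2. Il1r1, the signalling receptor of IL-1, was low in all libraries. It had 28 and 38 counts in WT1 and WT2, 144 and 179 in KO5 and KO6, 15 and 6 in WT3 and WT4, and 46 and 55 in KO7 and KO8. It was higher in KO in each experiment, with log2 fold changes of 2.22 (SE 0.26, adjusted p = 0.000188) and 2.05 (SE 0.47, adjusted p = 0.0445). Il1rl1, the IL-33 receptor, had 118 and 96 counts in KO5 and KO6 and between 6 and 26 counts in the other 6 libraries. KO5 and KO6 are the libraries with the fibroblast markers and Mcpt8, and the part of these in the receptor values was not tested. Il18rap, a chain of the IL-18 receptor, changed as Il18 did, with log2 fold changes of 2.60 (SE 0.32, adjusted p = 0.00124) in experiment 1 and -2.07 (SE 0.43, adjusted p = 0.0367) in experiment 2.

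Of 13 other inflammasome sensors, 10 passed the filter, with 3 lower and 4 higher in KO in experiment 1 and 4 lower and 0 higher in experiment 2 (1 higher unadjusted, edgeR). The experiment 1 counts were near the shares of all genes, 28.1% lower and 27.0% higher, and the experiment 2 shares were 8.29% and 7.52%. Mefv, which encodes the sensor pyrin, stood at 24.2 and 19.4 CPM in WT1 and WT2 and at 1.92 and 1.02 CPM in KO5 and KO6. The level in experiment 2 was 54.1 and 65.7 CPM in WT3 and WT4 and 7.32 and 3.91 CPM in KO7 and KO8. It was lower in KO in each experiment, with log2 fold changes of -3.91 (SE 0.27, adjusted p = 0.000140) and -3.42 (SE 0.33, adjusted p = 0.00945). Nlrp1b, a member of a group of near-identical copies between which reads can be split, gave 1.88 (SE 0.08, adjusted p = 2.21e-06) in experiment 1 and 0.33 (SE 0.11, adjusted p = 0.107) in experiment 2.

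All 13 regulators and effectors of inflammasomes passed the filter, with 5 lower and 6 higher in KO in experiment 1 and 3 lower and 0 higher in experiment 2 (1 higher unadjusted, edgeR), beside 28.1% and 27.0%, and 8.29% and 7.52%, of all genes. The guanylate binding proteins, interferon-induced proteins that help caspase-4 reach bacterial lipopolysaccharide, differed most between the experiments. Gbp5 had 35 and 31 counts in WT1 and WT2, 205 and 235 in KO5 and KO6, 8294 and 5570 in WT3 and WT4, and 87 and 22 in KO7 and KO8. Its log2 fold change was 2.68 (SE 0.19, adjusted p = 1.71e-05) in experiment 1 and -7.19 (SE 0.65, adjusted p = 0.00886) in experiment 2. Gbp2 gave 1.31 (SE 0.08, adjusted p = 6.87e-06) and -4.20 (SE 0.41, adjusted p = 0.00960). The interaction was -9.88 for Gbp5 and -5.53 for Gbp2, and between -2.37 and 1.54 for the other 11 genes. These are the directions seen for Il18 and the interferon stimulated genes. Gsdmd, named after its values were seen as the pore protein that releases IL-1 beta, gave 0.15 (SE 0.06, adjusted p = 0.0497) and -0.96 (SE 0.15, adjusted p = 0.0198).

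All 15 genes of IL-1 receptor signalling passed the filter, with 8 lower and 4 higher in KO in experiment 1 and 3 lower and 2 higher in experiment 2, beside 28.1% and 27.0%, and 8.29% and 7.52%, of all genes. Irak2, a kinase-like adaptor of the receptor complex, stood at 116 and 113 CPM in WT1 and WT2 and at 35.7 and 37.2 CPM in KO5 and KO6. In experiment 2 it stood at 235 and 189 CPM in WT3 and WT4 and at 68.4 and 71.6 CPM in KO7 and KO8. It was lower in KO by nearly the same amount in each experiment, with log2 fold changes of -1.66 (SE 0.06, adjusted p = 1.14e-06) and -1.60 (SE 0.15, adjusted p = 0.00727). Peli2, a ubiquitin ligase of the pathway, was higher in KO in each, at 2.15 (SE 0.11, adjusted p = 6.19e-06) and 1.49 (SE 0.19, adjusted p = 0.0142).

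**Figure D4:**
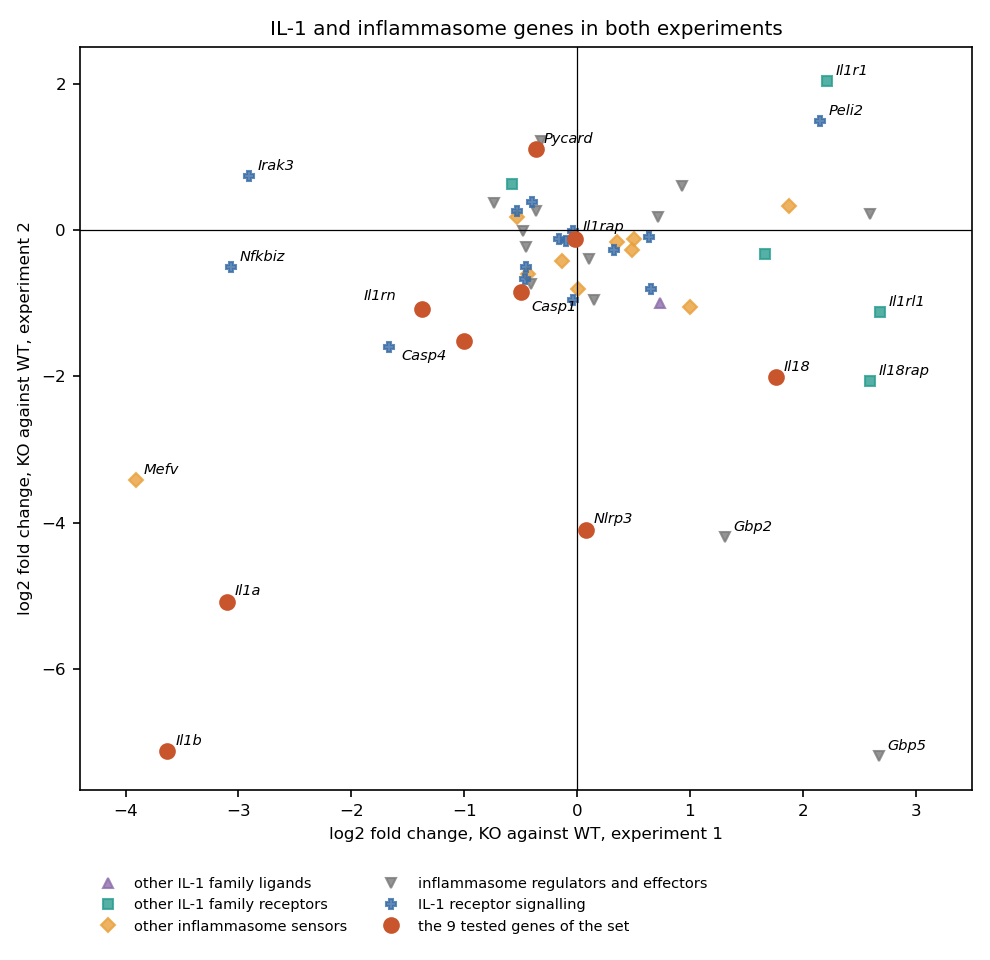
Log2 fold change of KO against WT in experiment 1 (horizontal axis) and experiment 2 (vertical axis). Orange marks the 9 tested genes of the set, shown with the other tested pathway genes. Each list has its own symbol, and the genes of the set and some of the others are named. Il1f9, with 0 counts in KO5 and KO6, is not drawn. Il1a, Il1b and Mefv lie at the lower left, below -3 on each axis, and Gbp5, Gbp2, Il18 and Il18rap lie at the lower right.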

How the data were processed

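RNA was sequenced from 8 BMDM libraries prepared with a stranded mRNA kit. The authors deposited raw counts per gene in 1 table for each experiment. Per the submitters' processing notes, STAR 2.7.0f, Subread 1.6.4 with featureCounts, DESeq2 1.22.1 and build GRCm38 were used; the annotation and strand setting are not given in the sources used here. The normalized tables were not used, and there were 0 columns of unknown samples.

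Counts were tested with edgeR 4.0.16 (quasi-likelihood, TMM scaling, Benjamini-Hochberg adjustment over 14418 genes, threshold 0.05) under R 4.3.3. KO was compared with WT within each experiment, as the submitters did, and an interaction fit and a fit with the experiment as a term used all 8 libraries. SEs were obtained from the F statistics. Chi-square per gene between replicates was 12.3 to 80.2, so no pair was a duplicate. The procedure was tested on simulated data. Depth covers counting error only.

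The 10 genes and all lists were chosen with earlier results of these data known. Other pathway genes are named if they had the smallest p of their list in an experiment, or passed in the same direction with a log2 change of at least 1 in each. DESeq2 1.42.0, limma 3.58.1, other filters and scalings, a fit of 4 groups and leaving out each library were tried as alternatives.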

Additional observations from a re-analysis of the deposited data

Results flagged for a closer look

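For 5 genes the change between genotypes differed between the 2 experiments by the interaction test of edgeR, given here as the log2 change in experiment 2 minus that in experiment 1. The difference was -3.51 for Il1b (adjusted p = 0.0472), -3.79 for Il18 (adjusted p = 0.000763), -4.19 for Nlrp3 (adjusted p = 0.000272), -0.37 for Casp1 (adjusted p = 0.0350) and 1.47 for Pycard (adjusted p = 0.000441). Il18 and Pycard changed sign between experiments, whereas Il1b and Casp1 were lower in KO in each. Experiment and any other difference between the batches of mice, cultures and libraries cannot be told apart.

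Il1rap in WT3, at 25.3 CPM, stood apart from the other 3 WT libraries, with a gap of 0.895 of the range of the group. Chance sets a library apart in this way in about 1 in 20 groups. Each of the genes tested was screened in its WT and in its KO libraries, and no other group was flagged.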

How the results depend on the processing

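Of 423 single-gene values and ratios recomputed under alternatives, 362 kept their direction and side of the threshold, 40 lost a call, 9 gained one and 12 reversed. For results that changed, the cause was not tested. No reversed value had passed its threshold. Under upper-quartile scaling the log2 change of Il1rap was 0.079 in experiment 1 and 0.006 over both experiments. With each library left out in turn, the log2 change of Il1rap ranged from -0.044 to 0.002 in experiment 1, from -0.268 to 0.037 in experiment 2 and from -0.114 to 0.013 over both. That of Nlrp3 in experiment 1 ranged from -0.125 to 0.318, and that of Il18 over both experiments from -0.842 to 0.612. The interaction ranged from -2.862 to 2.076 for Il1a, from -0.803 to 0.922 for Il1rn and from -0.258 to 0.079 for Il1rap.

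Counts of genes of the set in this paragraph are over all 9 tested and include Il1a, and with no filter they also cover Il1r2. Of the counts of called genes, 165 stayed within 1.5 times and 45 did not. In experiment 1 the genes of the set higher in KO numbered 2 with no filter and 1 to 2 with a library left out, where the main count was 1. In experiment 2 a library left out gave 2 to 6 genes of the set lower in KO, 2 to 9 pathway genes lower, 0 to 2 higher and 232 to 1388 of all genes, against 6, 11, 3 and 2279. A fit of 4 groups gave 7 pathway genes higher and 4899 of all genes. The interaction called 3 to 6 genes of the set and 3935 to 6508 of all genes with a library left out, against 5 and 5996. Over both experiments, a library left out gave 1 to 4 genes of the set and 2 to 4 pathway genes lower, and 243 to 1100 of all genes, against 4, 5 and 1027. DESeq2 gave 8 pathway genes lower, 5 higher and 2492 of all genes. With no experiment term the counts were 0 of the set and 0 pathway genes lower, 0 pathway genes higher and 4 of all genes. Where a library left out leaves its group with 1 sample, that sample is assumed to vary like the other groups. No paired analysis was possible because the WT and KO libraries share no replicate number. Depth limits Il1a and Il1r2, with 0 to 17 counts in each KO library.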
